A study of Mus musculus with 11 samples.

Results

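The DEAD and DEAH box RNA helicase genes were taken as the mouse protein-coding genes whose symbol starts with Ddx or Dhx followed by a digit, and 53 of the 21883 protein-coding genes on the placed chromosomes of mm10 met this rule. Of these, 37 had a Ddx and 16 a Dhx symbol. Each gene was described by the peaks of WDR5, P53 and H3K4me3 that lay within 1000 bases of either end of its span. The family was selected on the peak calls of these same lists, whose earlier results were known, so the counts below are descriptions, set beside the same share over all protein-coding genes, and carry no test.

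DEAD and DEAH box proteins are named for a short motif in their helicase core. They use ATP to open or remodel RNA duplexes and to strip proteins from RNA, and most act in steps that every growing cell needs: assembly and release of the spliceosome, maturation of ribosomal RNA in the nucleolus, mRNA export, translation and decay. A few have restricted jobs, such as sensing viral RNA or guarding the germ line. WDR5 is a core subunit of the MLL and SET1 enzymes that methylate lysine 4 of histone H3. The trimethylated form, H3K4me3, is found at the starts of active genes. P53 is a transcription factor that responds to stress and binds its own sequence motif.

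The material was mouse embryoid bodies at day 2, made from embryonic stem cells that all carried the Rx:GFP knock-in, by the SFEBq method with 5% KSR. The genotypes were profiled by CUT&RUN, in which an antibody guides a nuclease to release bound chromatin fragments. They were WT, a Wdr5 knockout (KO), and a knockout of both Wdr5 and p53 (DKO). In every group doxycycline was taken away at day 0 and 2% matrigel was given at day 1. What doxycycline controlled, which parts of Wdr5 and p53 were deleted, or whether each line was a single clone, is not stated in the sources used here. H3K4me3 had 1 peak list in each of the 3 genotypes. WDR5 and P53 had 2 lists each in WT and in DKO, and were not analysed here for KO.

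The lists held 9836 H3K4me3 peaks from 34.2 M (M, mega) fragments in WT, 918 from 22.3 M in KO and 6418 from 43.2 M in DKO. The WDR5 lists held 725 and 450 peaks in WT and 226 and 166 in DKO. The P53 lists held 396 and 294 peaks in WT and 99 and 179 in DKO. In the second list of WT WDR5, 77.3% of summits coincided to the base with one of the first, as did 75.3% in DKO WDR5, 80.3% in WT P53 and 10.6% in DKO P53. All second lists came from merged alignments, per the file headers, so also in DKO P53 the lists were not shown to be separate, and no pair was read as replicates. Every difference between genotypes below therefore compares 1 library with 1 library and has no replicate check. Of 8 pluripotency markers, 6 carried H3K4me3 in WT, 3 in KO and 7 in DKO. Of 8 early neural and eye field markers, 2 did so in WT, 1 in KO (Zic2) and 1 in DKO (Otx2), and Rax itself in none. Of 10 markers of other lineages, 2 did so in WT and 0 in KO and in DKO. Over all protein-coding genes the shares were 35.5% in WT, 3.2% in KO and 22.8% in DKO. The marker sets are small and are given as counts only, and cell state was not tested.

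Most members carried H3K4me3 at an end in WT and in DKO, and few did in KO. In WT 37 of the 53 members (69.8%) had such a peak, where 35.5% of all protein-coding genes did. In DKO the count was also 37 of 53 (69.8%), against a share of 22.8% of all genes. In KO it was 4 of 53 (7.55%), against 3.2% of all genes. The KO list was short for all genes, and its library also had the fewest fragments, whose part in the count was not tested. Over the 3 genotypes, 40 members (75.5%) had a peak at least once, against 37.1% of all genes.

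Most members marked in WT were also in the DKO list. Of the 37 members marked in WT, 34 were also called in DKO (91.9%), where 59.7% of the 7759 genes marked in WT were. With each list cut to the length of the KO list, by the highest fold enrichment, 8 members were marked in WT and 9 in DKO. Over all genes these shares were 4.25% and 4.02%. Of the 8, 4 were also in DKO, against 37.4% of all genes marked in the cut WT list. In KO was 1 of the 8 (12.5%), against 23.9%. With the full WT list, the KO list held 4 of the 37 (10.8%), where 8.98% of all genes marked in WT were called. All 4 were also in the DKO list (10.8%, against 8.47%). In neither KO nor DKO were 3 of the 37 (8.11%), against 39.7% of all marked genes. They were Ddx51 and Ddx55, which act in maturation of the large ribosomal subunit, and Dhx8, which releases spliced mRNA from the spliceosome. Of the 16 members without a peak in WT, 3 (18.8%) had one in DKO, against 2.56% of all such genes: Ddx18, Dhx32 and Ddx43.

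The members also sat high in the WT list, and in that list the share of genes called again in DKO rose with height. Fold enrichment, the height of a peak's pileup over the local background of its own library, is the authors' value for each peak, and for each gene the highest peak at an end was used. It is not scaled between libraries. In WT the members' median fold enrichment was 5.33, with values from 3.75 to 8.35, and the median of all marked genes was 4.72. Above that median lay 29 of the 37 members (78.4%). Of these 29, 28 were called in DKO (96.6%), against 74.9% of all genes in the same range. Of the 8 members below it, 6 were called in DKO (75.0%), against 44.6% of all. By quartiles of WT fold enrichment from the lowest to the highest, the members called in DKO numbered 1 of 2, 5 of 6, 13 of 13 and 15 of 16, and the shares of all marked genes were 35.3%, 53.9%, 67.6% and 82.2%. The members' share was thus the higher one in each of the 4 quartiles, although the lowest quartile held 2 members.

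**Figure D1:**
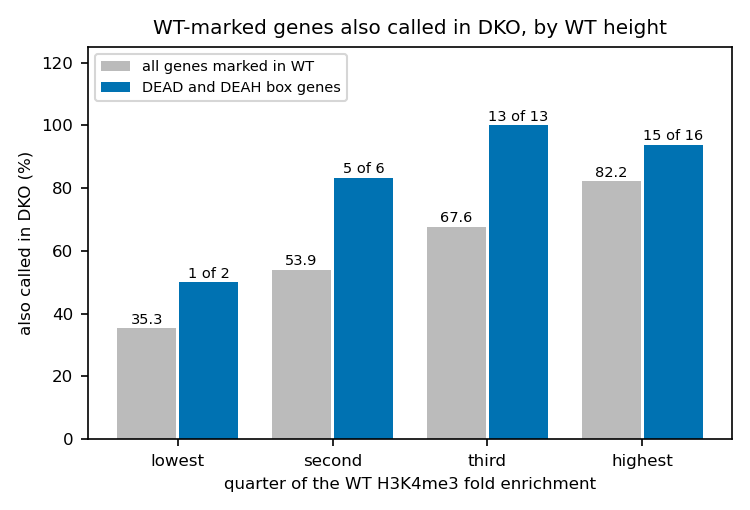
Share of genes marked by H3K4me3 in WT that were also called in DKO (vertical axis, %), by quartile of WT fold enrichment (horizontal axis). Grey bars are all 7759 marked genes and blue bars the 37 members, with the counts above them; both rise from the lowest quartile to the third, and the blue bar is the taller in each.

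In KO, 4 of the 29 members above the median were called (13.8%), against 14.0% of all genes in that range. None of the 8 members below it was, against 3.99% of all.

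The splicing helicases included 3 of the 4 members with peaks in all 3 genotypes. Of 16 members with a splicing role, 14 were marked in WT (35.5% of all genes), 3 in KO (3.2%) and 14 in DKO (22.8%). In both the WT and the DKO list were 13, against 21.2% of all genes. The median fold enrichment of the marked splicing members was 5.52 in WT and 4.59 in DKO. The highest in WT was Ddx39a (chromosome 8, 83715177 to 83726904), a helicase of splicing and mRNA export. Its fold enrichment was 7.87 in WT, 5.83 in DKO and 6.42 in KO. Its close relative Ddx39b (chromosome 17, 35241746 to 35253707) had 5.38 in WT, 5.33 in KO and 4.51 in DKO. The pair thus stood in all 3 libraries.

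Ddx41 (chromosome 13, 55530410 to 55536658), a spliceosome component also known for sensing DNA, had 7.79 in WT and 4.22 in DKO. Ddx23, which helps the U6 RNA replace U1 at the splice site, had 6.62 and 4.97, and Dhx38, which acts between the chemical steps of splicing, had 6.52 and 5.99. None of these had a KO peak at an end. Dhx15, which takes spent spliceosomes apart, was one of the few members with a higher value in DKO, at 5.67 in WT and 5.92 in DKO. Dhx16, which drives the activated spliceosome into its first step, had 4.86 and 4.90.

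Lower in the list were Ddx46 (5.49 in WT and 3.91 in DKO), which acts when the branch site is recognised, and Ddx20 (4.93 and 4.63), a partner of the SMN complex. Ddx17 had 4.78 and 3.93, Ddx42, a partner of the branch site complex, 4.21 and 3.84, and Dhx40 5.56 and 4.55. Dhx8 was the lowest of all members marked in WT, at 3.75, and was not called in DKO. Dhx32 had a peak at an end in DKO, at 3.68, and in neither WT nor KO. Dhx35 was the one splicing helicase with no peak at an end in any list, and its nearest WT peak lay 169261 bases away.

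Most helicases of ribosome biogenesis were marked in WT and DKO. Of 16, 13 were marked in WT (35.5% of all genes), 12 in DKO (22.8% of all genes) and 11 in both (21.2% of all genes). The median fold enrichment of those marked was 5.26 in WT and 4.28 in DKO. In KO 0 of 16 were called, which is near the 3.2% of all genes. Ddx49 (chromosome 8, 70292866 to 70302471), which acts in maturation of the small subunit, had the highest values of the family in both libraries, 8.35 in WT and 6.89 in DKO. Ddx47 (chromosome 6, 135011612 to 135023776), another small subunit factor, had 7.94 in WT but 4.20 in DKO, where it lay at the members' median. Ddx49 and Ddx47 were thus near in WT and far apart in DKO. The Ddx49 values cannot be assigned to Ddx49 alone. Their summits lay at positions -454 in WT and -436 in DKO from its start site. Cope, a gene that runs the other way, starts 296 bases upstream of Ddx49.

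Ddx54 had 6.09 and 5.40, Ddx27 5.79 and 4.36, and Ddx31 5.26 and 4.12, all 3 of them factors of the large subunit. Dhx33, which is needed for transcription of ribosomal RNA, had 5.60 and 4.65, and Ddx21, a nucleolar helicase that links RNA polymerase I with processing, had 5.06 and 5.02. Ddx52 had 4.83 and 4.02, Ddx10 4.80 and 3.30, Dhx37 4.26 and 4.57, and Ddx24 3.97 and 3.43. Ddx51 had 5.69 and Ddx55 4.32 in WT, with no DKO peak at an end. Ddx18 had a peak at an end in DKO, at 3.50, and in neither WT nor KO. Ddx50 and Ddx56 had none at an end in any list.

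**Figure D2:**
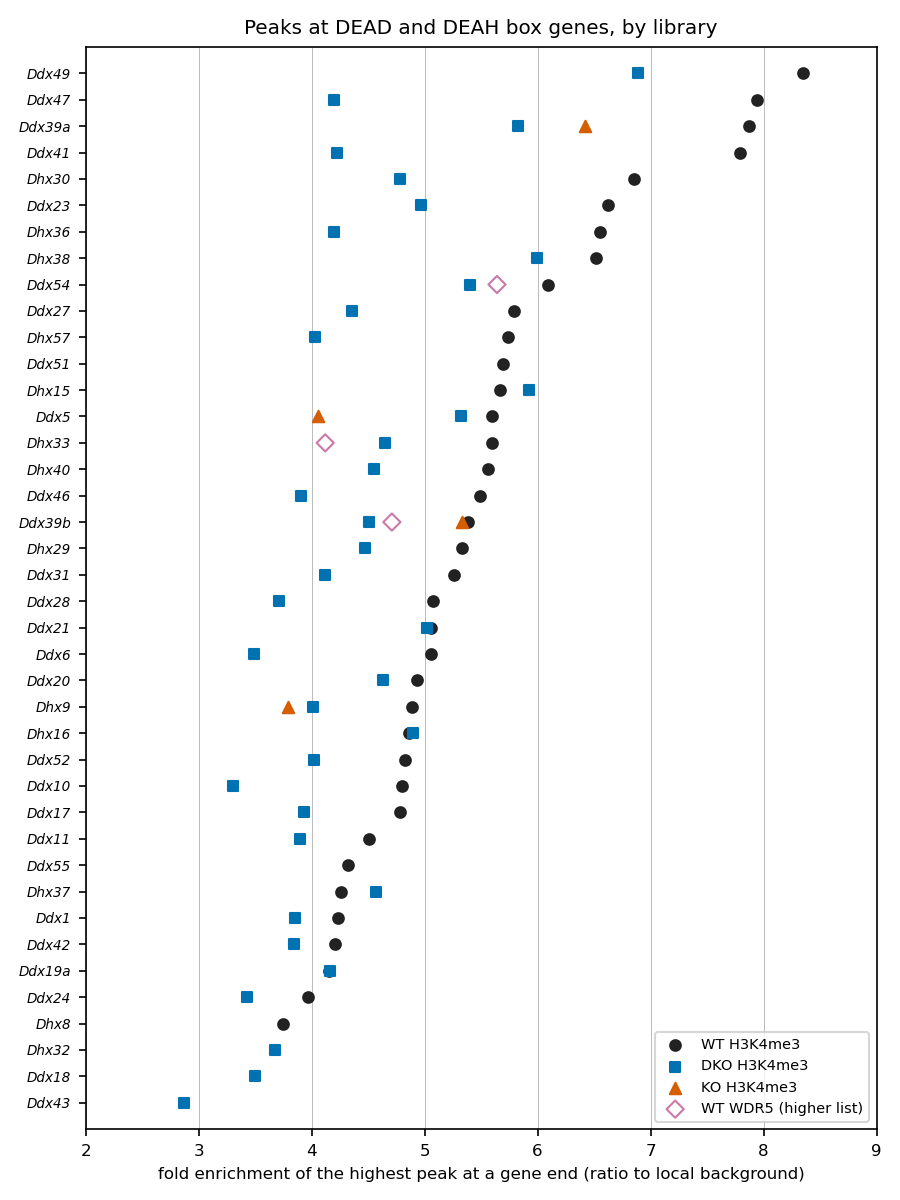
Fold enrichment of the highest peak at a gene end (horizontal axis, ratio to local background) for the 40 members with an H3K4me3 peak in at least 1 genotype, ordered by the WT value. Black circles are WT, blue squares DKO and orange triangles KO H3K4me3, and open diamonds are WDR5 in WT; blue squares lie left of black circles for 30 of the 34 members in both lists.

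In the genes of translation, export and decay, H3K4me3 was called at 5 genes. Of 10, 5 were marked in WT and the same 5 in DKO, against 35.5% and 22.8% of all genes, with medians of 5.06 and 4.16. None was called in KO, against 3.2% of all genes, so the WT and KO counts were not far from those shares. Dhx36, which unwinds G-quadruplexes, had 6.55 in WT and 4.20 in DKO. Dhx29, which helps ribosomes scan structured leaders, had 5.33 and 4.47. Ddx6, an activator of decapping and a P-body protein, had 5.06 and 3.49. Ddx1, a subunit of the tRNA ligase complex, had 4.23 and 3.85, and Ddx19a, an mRNA export factor, 4.15 and 4.16. The members without a peak at an end were Ddx19b, its close relative, Ddx25, a testis helicase, the X-linked and Y-linked translation helicases Ddx3x and Ddx3y, and Dhx34, a factor of nonsense-mediated decay.

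The remaining groups held 1 to 4 genes each, too few to set against the all-gene shares (35.5% in WT, 22.8% in DKO and 3.2% in KO). Of the 4 genes placed under RNA sensing, Dhx9, a nuclear helicase with many roles, was marked in all 3 libraries, at 4.89 in WT, 3.79 in KO and 4.01 in DKO. Ddx58, which encodes the viral RNA sensor RIG-I, its relative Dhx58, and Ddx60 had no peak in any list. Of the germ line helicases, Ddx4, the mouse Vasa gene, had none, and its nearest WT peak lay 148237 bases away. Ddx43 had a DKO peak at 2.87, the lowest fold enrichment of the family. Both mitochondrial helicases were marked in WT and DKO: Dhx30 with 6.85 and 4.78, and Ddx28 with 5.07 and 3.71. Ddx11, a DNA helicase of sister chromatid cohesion, had 4.51 and 3.90. Of the remaining genes Dhx57 had 5.74 and 4.03, and Ddx59 had no peak.

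**Figure D3:**
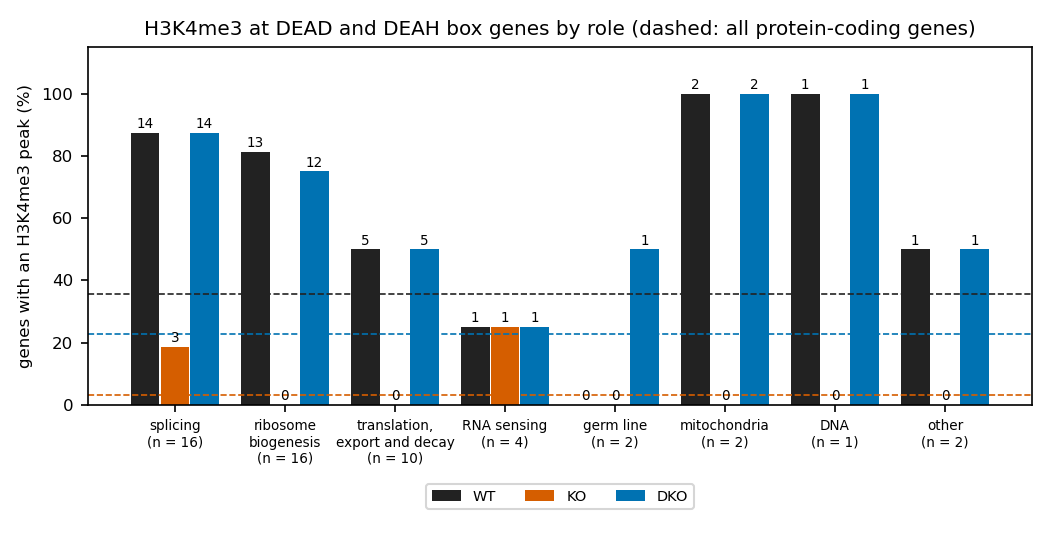
Share of members with an H3K4me3 peak at an end (vertical axis, %) by role group, with counts above the bars for WT (black), KO (orange) and DKO (blue) and n under each group. Dashed lines give the shares of all protein-coding genes (35.5%, 3.2% and 22.8%); splicing and ribosome biogenesis stand above the WT and DKO lines, and RNA sensing, with 1 of 4 genes in each genotype, stands below the WT line and above the DKO and KO lines.

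By symbol alone, counts for Ddx and Dhx genes were as follows. Of 37 Ddx genes 25 were marked in WT and 25 in DKO, with medians of 5.07 and 4.12. Of 16 Dhx genes 12 were marked in WT and 12 in DKO, with medians of 5.58 and 4.56. The KO list held 3 Ddx genes and 1 Dhx gene. Over all protein-coding genes the shares were 35.5% in WT, 22.8% in DKO and 3.2% in KO. The medians of all marked genes were 4.72 in WT and 4.03 in DKO.

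Among the 34 members marked in both WT and DKO, fold enrichment was lower in DKO for most, as it was for all genes. Their median was 5.35 in WT and 4.29 in DKO, a ratio of 0.801. Over all 4636 genes marked in both, the medians were 5.06 and 4.08, a ratio of 0.807. A higher value in DKO was found for 4 of the 34 members (11.8%), against 16.5% of all genes, namely Dhx15, Dhx16, Dhx37 and Ddx19a. At Dhx37 the WT peak lay downstream of the start site and the DKO peak upstream, so its values belong to different peaks. The summit pileup per M fragments, a scale that takes in depth but not background, had medians of 1.10 in WT and 0.718 in DKO for the members, and 1.02 and 0.648 for all genes. On that scale no member was higher in DKO, against 4.87% of all genes, so the direction for Dhx15, Dhx16, Dhx37 and Ddx19a depended on the scale. The family's shift between the libraries was close in size to that of all genes on both scales.

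**Figure D4:**
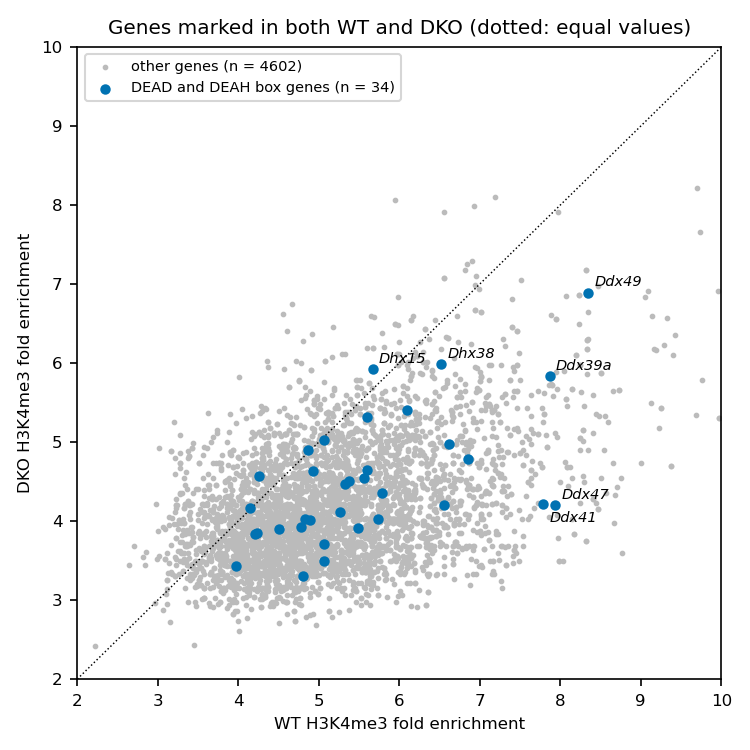
H3K4me3 fold enrichment in DKO (vertical axis) against WT (horizontal axis) for genes marked in both, with 34 members in blue and 4602 other genes in grey, of which 8 lie outside the axes. Most points lie under the dotted line of equal values, and Ddx41 and Ddx47 lie much farther under it than Ddx49 and Ddx39a.

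The 4 members in the KO list were Ddx39a, Ddx39b, Ddx5 and Dhx9, all among the 29 members above the WT median of all genes. Ddx5 (chromosome 11, 106780355 to 106789185), a helicase of splicing and transcription, reached a fold enrichment of 5.60 in WT, 5.32 in DKO and 4.06 in KO. The KO value was below the WT value for all 4, where 20.5% of the 697 genes marked in both WT and KO were higher in KO. Summit pileup per M fragments in WT, KO and DKO was 2.14, 1.98 and 1.46 at Ddx39a, 1.35, 1.30 and 0.880 at Ddx39b, 1.58, 1.17 and 1.04 at Ddx5, and 1.29, 0.853 and 0.857 at Dhx9. At Ddx39a, Ddx39b and Ddx5 the KO pileup per M thus lay between those of the other libraries, and at Dhx9 it was close to that of DKO. The KO peaks at Ddx39a and Ddx39b were the better supported, with 44 and 29 fragments at the summit, and those at Ddx5 and Dhx9 had 26 and 19.

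The KO peak at Ddx5 lay in a promoter shared with a neighbour. It ran from 106789399 to 106789783 on chromosome 11, upstream of Ddx5 with its summit 536 bases before the start site, and Cep95, a centrosomal gene that runs the other way, starts 67 bases upstream of Ddx5. The list cannot assign the mark to one gene of such a pair. At Dhx9 (chromosome 1, 153455756 to 153487688) the KO peak ran from 153486776 to 153487086, inside the gene, with its summit 651 bases past the start site. A further KO peak with a fold enrichment of 4.28 lay inside Ddx6, 2639 bases from its end, and so outside the window.

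The bases upstream of the start sites of Ddx5 and Dhx9 are shown because these members had an H3K4me3 peak in KO. Those of Ddx39b are shown further below, with the WDR5 peaks. Promoter sequences are those of RefSeq on GRCm38.p6 (mm10), which matched 47 of the 53 members, and Ddx39a had no match. Each line gives the 250 bases before the start, 5′ to 3′ on the gene's strand. Capitals mark matches on either strand to CCGGAAG (ETS factors), GGGCGG (SP and KLF factors), CCAAT (NF-Y), the NRF1 motif or CACGTG (MYC and other E-box factors), and no marked match overlaps another. Ddx5 is at chr11:106789186-106789435 (minus strand) and Dhx9 at chr1:153487661-153487910 (minus strand).
Ddx5: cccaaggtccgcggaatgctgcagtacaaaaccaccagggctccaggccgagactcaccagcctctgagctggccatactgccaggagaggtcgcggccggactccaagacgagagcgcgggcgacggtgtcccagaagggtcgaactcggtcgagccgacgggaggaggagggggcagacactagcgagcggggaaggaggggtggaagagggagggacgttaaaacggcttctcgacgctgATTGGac
Dhx9: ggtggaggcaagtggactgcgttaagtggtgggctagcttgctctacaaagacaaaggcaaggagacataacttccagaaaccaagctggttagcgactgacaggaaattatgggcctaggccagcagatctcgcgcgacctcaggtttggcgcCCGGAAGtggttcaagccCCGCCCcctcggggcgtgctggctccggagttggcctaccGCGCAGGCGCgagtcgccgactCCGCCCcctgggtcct
Ddx5 held a single NF-Y match, 7 bases before the start. Dhx9 held matches for ETS, NRF1 and, in 2 places, SP and KLF factors. No motif was common to both. The KO peak at Ddx5 began within the sequence shown, and that at Dhx9 lay wholly downstream of it.

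WDR5 was called at the end of 3 members in WT: Ddx54, Ddx39b and Dhx33 (5.66%), where 2.46% of all genes had such a peak in either list. Peaks in both lists were found for Ddx54 and Ddx39b (3.77%), against 1.48% of all genes. Of the 37 members marked by H3K4me3 in WT, the 3 were 8.11%, against 6.12% of all marked genes, so the share was near that background. In DKO 1 member, Ddx54, had a WDR5 peak at an end (1.89%), against 0.653% of all genes. Each of these counts rests on 3 genes or fewer. Wdr5 was knocked out in DKO, so a peak of the WDR5 antibody there is not shown to be WDR5 binding. Whether such peaks are background of the antibody was not tested.

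At Ddx54 (chromosome 5, 120613082 to 120628592, plus strand), an RNA helicase of the large ribosomal subunit, the peaks called with the WDR5 antibody lay at different places in WT and DKO. As Wdr5 was knocked out in DKO, these places are not shown to be a move of WDR5. In WT both lists placed the peak at 120613121 to 120613372, over the start site at 120613130, with fold enrichments of 5.64 and 5.03 and the summit 110 bases past the start. In DKO both lists placed it upstream, from 120612682 to 120612875 and to 120612872, with fold enrichments of 4.95 and 4.85 and the summit at position -373 from the start. The WT and DKO summits were 483 bases apart, and the peaks did not overlap. The DKO peak lay 93 bases from an end of Rita1, the neighbouring gene, and 207 and 210 bases from the end of Ddx54. By the nearest end alone it belonged to Rita1, and then no member had a WDR5 peak in DKO.

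H3K4me3 flanked the start of Ddx54. In WT it had an upstream peak with a fold enrichment of 3.98 and a downstream peak with 6.09, and in DKO likewise, with 3.38 and 5.40. The WT WDR5 peak overlapped the downstream WT H3K4me3 peak by 63 bases and lay 213 bases from the upstream one. The DKO WDR5 peak lay where WT, but not DKO, had its upstream H3K4me3 peak. It was 252 bases from the nearest H3K4me3 peak of DKO. No H3K4me3 peak was called at Ddx54 in KO.

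At Ddx39b, WDR5 in WT spanned the start site, and H3K4me3 began nearer to it in KO and DKO than in WT. The WDR5 peaks ran from 35241481 to 35242034 and from 35241486 to 35242033, with fold enrichments of 4.71 and 4.42. Their summits were 398 bases apart, at positions 165 and -233 from the start site. H3K4me3 in WT ran from 35242146 to 35243136, beginning 400 bases past the start and 112 and 113 bases beyond the WDR5 peaks. In KO it ran from 35241851 to 35242405 and in DKO from 35241856 to 35242730, which overlapped the place of the first WT WDR5 peak by 184 and 179 bases. The H3K4me3 summits lay 1188 bases past the start in WT, 362 in KO and 544 in DKO. No WDR5 peak was called there in DKO.

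Dhx33 (chromosome 11, 70984091 to 71004533, minus strand) had the weakest of the 3 WDR5 peaks. It was called in the first WT list only, from 71004219 to 71004415, with a fold enrichment of 4.12 and 14 fragments at its summit, 111 bases past the start site. It overlapped the WT H3K4me3 peak by 130 bases. That H3K4me3 peak ran from 71003496 to 71004348 in WT and from 71003490 to 71004348 in DKO, so its edges nearly coincided. No WDR5 peak was called at Dhx33 in DKO.

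**Figure D5:**
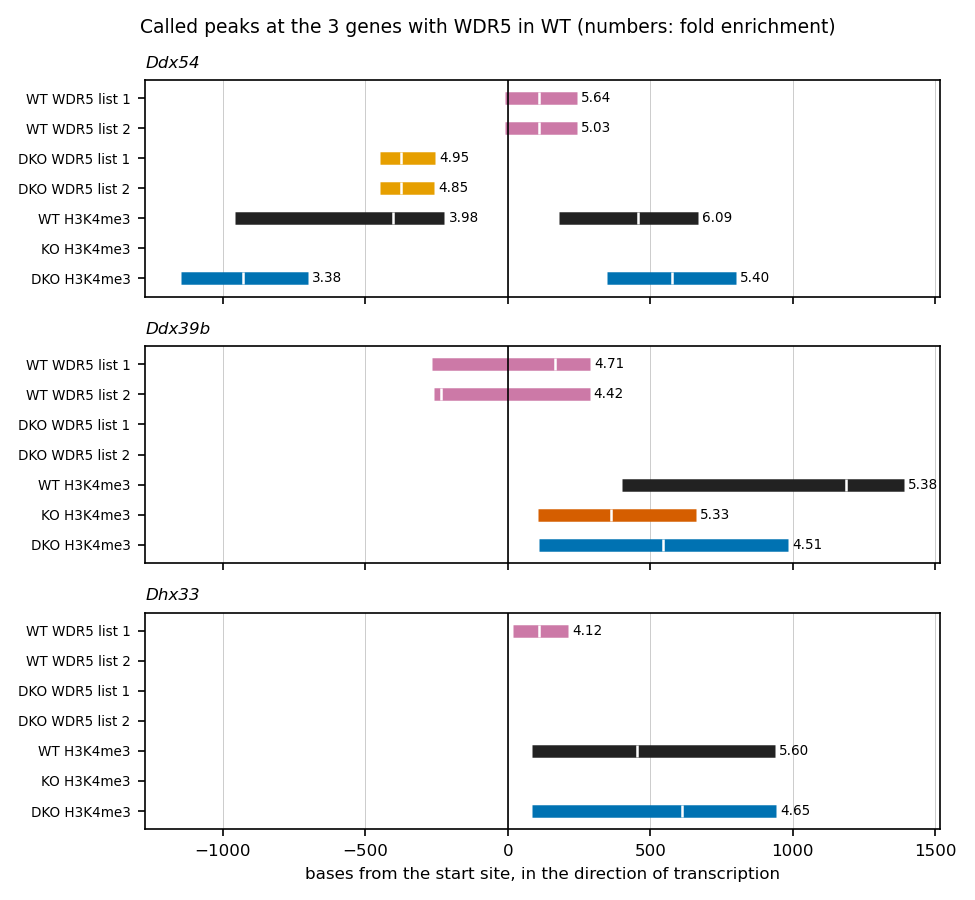
Called peaks at the 3 members with WDR5 in WT, as bars along the distance from the start site (horizontal axis, bases, in the direction of transcription), with 1 row for each list, white ticks at summits and the fold enrichment beside each bar. At Ddx54 the DKO WDR5 bars lie left of the WT bars, at Ddx39b the KO and DKO H3K4me3 bars begin nearer to 0 than the WT bar, and Dhx33 has WDR5 in 1 list.

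The upstream sequences of these 3 genes, shown with the same capitals, are where WDR5 was called or next to it. They lie at chr5:120612880-120613129 (plus strand) for Ddx54, chr17:35241496-35241745 (plus strand) for Ddx39b and chr11:71004433-71004682 (minus strand) for Dhx33.
Ddx54: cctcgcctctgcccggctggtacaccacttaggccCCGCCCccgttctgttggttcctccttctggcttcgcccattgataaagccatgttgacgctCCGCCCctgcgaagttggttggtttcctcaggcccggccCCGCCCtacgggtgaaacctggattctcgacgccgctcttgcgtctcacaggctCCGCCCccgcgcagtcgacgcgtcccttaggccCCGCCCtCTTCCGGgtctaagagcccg
Ddx39b: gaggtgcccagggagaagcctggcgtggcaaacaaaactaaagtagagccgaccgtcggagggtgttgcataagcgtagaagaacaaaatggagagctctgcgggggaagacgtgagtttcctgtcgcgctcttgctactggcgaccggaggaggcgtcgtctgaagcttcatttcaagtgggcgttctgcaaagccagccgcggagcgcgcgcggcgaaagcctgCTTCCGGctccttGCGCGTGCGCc
Dhx33: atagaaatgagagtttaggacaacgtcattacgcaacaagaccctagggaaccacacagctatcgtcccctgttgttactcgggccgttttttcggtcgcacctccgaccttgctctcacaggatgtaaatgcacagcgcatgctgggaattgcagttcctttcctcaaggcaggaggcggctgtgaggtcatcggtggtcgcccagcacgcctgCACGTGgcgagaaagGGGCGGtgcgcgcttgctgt
Ddx54 held 5 SP and KLF matches, all on the opposite strand (CCGCCC), and an ETS match 20 bases before the start. Ddx39b held an ETS match 24 bases and an NRF1 match 11 bases before the start, within the span of both WT WDR5 peaks. Dhx33 held an E-box 35 bases and an SP and KLF match 20 bases before the start, just upstream of its WDR5 peak. No motif was common to all 3.

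P53 was called at the end of no member in WT, where 0.119% of all genes had a peak, and of none in DKO, where 0.0411% did. At such low shares 0 of 53 says little about the family. The WT P53 peak nearest to a member lay 19994 bases from an end of Dhx9, with fold enrichments of 13.72 and 12.94 in the lists. The next lay 24239 bases from Ddx11, with 4.41 in the first list, and 86375 bases from Dhx34, with 12.78 and 11.67. The core motif of a P53 site was in the 250 upstream bases of no member, and in those of 0.543% of all genes.

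The H3K4me3 peaks of the members lay mostly past the start site, as for all genes. With a known start site in 32 of the members marked in WT, the highest peak covered it in 6, lay downstream in 21 (65.6%, against 60.3% of all marked genes) and upstream in 5. In DKO 4 covered it, 23 lay downstream (71.9%, against 64.0%) and 5 upstream. The median distance from start site to summit was 431 bases in WT and 534 in DKO for members, and 403 and 500 for all genes. The widest peak at an end of each marked member had a median width of 655 bases in WT and 572 in DKO, with 612 and 485 over all marked genes. The widest was that of Dhx9 in WT, at 1879 bases. In each of WT and DKO, 7 members had more than one peak at an end (18.9%), against 17.0% and 15.7% of all marked genes.

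Several members share their promoter with a neighbour. A start site of a gene running the other way lay within 1000 bases upstream for 8 of 47 members (17.0%), against 7.52% of all 17491 genes with a promoter sequence. Among those marked in WT it was 7 of 32 (21.9%), against 17.0%. Counted by the window around either end, WT peaks at Ddx42, Ddx5, Dhx29, Dhx57, Ddx31, Ddx51, Ddx54, Ddx49, Ddx28 and Dhx38 were also within that of Ccdc47, Cep95 or Polg2, Mtrex, Morn2, Gtf3c4, Noc4l, Rita1, Cope, Dus2 and Txnl4b in turn. Mtrex, the exosome helicase, and Dhx29 had one and the same peak, so these are not separate observations.

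The members' promoters held more CpG than the median of all genes. Over the 250 upstream bases the median number of CpG was 19 for the 47 members and 10 for all genes. It was 19 for the 32 members marked in WT and 15 for the 15 members without a WT peak at an end, with 17 for all marked and 4 for all unmarked genes. Those 15 include Ddx56, Ddx50, Ddx19b and Dhx32, which had a WT peak at a start site inside the span, and Ddx18 and Ddx43, which had a DKO peak at an end. The ETS sequence CCGGAAG was in 12 of the 32 marked members (37.5%), against 17.1% of all marked genes. GGGCGG was in 18 (56.2%, against 64.4%), CCAAT in 11 (34.4%, against 37.7%) and the NRF1 sequence in 4 (12.5%, against 9.97%). TATAAA was in none, against 5.12%, and among all 47 members it was in Ddx58 alone. In the 250 bases upstream of all 17491 genes, CCGGAAG was found in 9.12%, GGGCGG in 42.7%, CCAAT in 36.3%, the NRF1 motif in 5.3%, CACGTG in 6.64% and TATAAA in 12.4%. These matches are descriptions of sequence, and binding was not measured for these factors.

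Ddx4 shows that CpG content and the mark did not go together in each gene. Its upstream sequence, at chr13:112652311-112652560 (minus strand), is printed because it held 31 CpG, with no peak within the window in any list.
Ddx4: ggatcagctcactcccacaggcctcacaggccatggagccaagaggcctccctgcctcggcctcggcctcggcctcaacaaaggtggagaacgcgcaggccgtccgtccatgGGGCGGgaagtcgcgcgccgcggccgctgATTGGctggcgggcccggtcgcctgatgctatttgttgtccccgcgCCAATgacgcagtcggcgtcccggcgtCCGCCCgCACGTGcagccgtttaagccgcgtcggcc
It held 2 NF-Y matches, 2 SP and KLF matches and an E-box. Dhx57, by contrast, held 4 CpG and was marked in WT and DKO.

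The window of 1000 bases around the ends of the span left out some members with a peak close by. Just inside it lay a second WT peak of Ddx5 at 998 bases, which was 180 bases from Polg2, and then DKO peaks of Ddx17 at 853, Ddx18 at 848, Ddx6 at 828, Ddx20 at 783, Dhx15 at 776, Dhx9 at 754 and Ddx31 at 749. The WT peak of Ddx6 lay at 739. Just outside lay a WT peak 1046 bases and a DKO peak 1086 bases from Ddx25, nearest to Hyls1, and peaks inside Ddx3x, 1609 bases from its end in WT and 1538 in DKO, with fold enrichments of 4.06 and 3.72. At Ddx56, Ddx50, Ddx19b and Dhx32 a WT peak lay within 1000 bases of an annotated start site that is not an end of the span. The WT fold enrichments there were 5.96, 5.33, 6.01 and 4.36, and the DKO list had a peak at the inner start of Ddx56 with 3.89 and of Ddx19b with 3.33. The peak at Dhx32 also lay at an end of Fank1 and cannot be assigned to Dhx32 alone. At these inner start sites H3K4me3 was therefore called in WT, although the rule counts no peak for the genes.

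Helicase genes outside the symbol rule were counted in the same way. Of 23 other RNA helicase genes, 13 had an H3K4me3 peak at an end in WT (35.5% of all genes), 2 in KO (3.2%) and 10 in DKO (22.8%), and all 10 were also marked in WT. Their median fold enrichment was 4.85 in WT and 3.71 in DKO. The KO genes were Snrnp200, which unwinds U4 from U6 in the spliceosome, with 5.63 in WT, 4.20 in KO and 4.66 in DKO, and Eif4a1, the translation initiation helicase, with 4.33 in KO alone. Aqr, a spliceosome helicase, had 5.43 in WT and 4.90 in DKO, and Mov10, a partner of RNA silencing, 5.86 and 3.71. None of the 23 had a WDR5 or a P53 peak at an end.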

How the data were processed

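CUT&RUN peak lists of WDR5, P53 and H3K4me3 were analysed as deposited. Per the file headers, the authors ran MACS (2.1.2 or 2.1.0.20150731) in paired-end mode with no control library, a q cutoff of 0.01, 10 kb for local background and up to 2 duplicates. The pileup is a coverage signal in fragments, the p and q values are −log10 and the fold enrichment is a ratio to local background, all deposited by the authors for each peak. The submitters' processing notes name Bowtie2, SAMtools 1.5, bedtools, MACS2 2.1.0, HOMER 4.10 and mm10.

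Only peaks of chromosomes 1 to 19, X and Y entered. Distances ran from a peak's interval to either end of a gene's span in RefSeq GRCm38.p6, with start sites and strands from its promoter table (Python 3.11.15, pandas 2.3.3). Exons and introns were not analysed here. For WDR5 and P53 a peak in either list counted. Without a control or spike-in, calls depend on depth and background.

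The members, role groups, marker lists and motifs were chosen with earlier results of these data known. Every member is named. Values were to be given for members with WDR5 or P53, with H3K4me3 in KO, in DKO but not WT, or in WT alone, the 8 highest and 4 lowest in WT, and those next to the window's edge, and others were added by role. No test was made, as each genotype has 1 H3K4me3 library, and the second WDR5 and P53 lists come from merged alignments, per the file headers, and were not shown to be separate libraries. Assignment of peaks to genes was tested on simulated peaks. Alternatives were other windows, whole spans, nearest ends, start sites, stricter q, the top 50% of each list, lists of equal length, single lists and another scale.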

Additional observations from a re-analysis of the deposited data

How the results depend on the processing

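Counts over the 53 members held within 1.5 times of those reported under windows of 500 and 2000 bases, whole gene spans, a −log10 q of at least 5 and start sites in place of ends. With each list cut to its top 50% by fold enrichment, KO held 2 members with H3K4me3 (1.45% of all genes). Both were also marked in WT (2, against 1.35% of all genes). WDR5 in WT was at 1 member, Ddx54 (1.27% of all genes). With lists of equal length per antibody, 8 members were marked in WT (4.25% of all genes) and 9 in DKO (4.02%). Both lists held 4 (1.59%), and 1 was in WT and KO (1.01%). WDR5 in WT was at 0 members (0.621%), while Ddx54 in DKO stayed called (0.53%). With equal length the share of WT-marked members also called in DKO was 4 of 8, against 37.4% of all genes marked in the cut WT list. For KO it was 1 of 8 (12.5%), against 23.9%. Under the other settings the members' share called in DKO was 82.4% to 92.3%, against 48.5% to 61.7% of all WT-marked genes. With the nearest end only, WDR5 in DKO was at 0 members (0.512% of all genes).

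The members' median over that of all marked genes was 1.13 in WT by fold enrichment (37 members), and 1.23 by pileup per M fragments. Among genes marked in WT and DKO, a setting added after seeing the data, it was 1.06 (34 members). Among genes marked in WT, KO and DKO it was 0.98, over 4 members. In KO it was 1.02, and 1.25 by pileup, each over 4 members. Leaving out either list, members with WDR5 numbered 2 to 3 in WT (1.5% to 2.44% of all genes) and 1 to 1 in DKO (0.42% to 0.649%). Those with P53 numbered 0 to 0 in each, against at most 0.119% of all genes. Dhx33 lost WDR5 without the first list or with a −log10 q of at least 5, and Dhx9 lost its KO peak with that q or a window of 500 bases. No paired analysis was possible because no test was made and no group of H3K4me3 has more than 1 list. The KO library had the fewest fragments (22.3 M), so a peak not called there is not shown to be absent.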
